A study of Homo sapiens with 4 samples.

Results

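The 10 genes described here were ATM, ATR, ATRIP, RAD9A, TOPBP1, CLSPN, CHEK1, CHEK2, WEE1 and CDC25A, which encode the kinases of the DNA damage checkpoint with their partners and targets. They were found by their gene name among the non-control spots of the arrays, and they made up 10 of 27193 names, 14 of 34127 probes and 23 of 43118 spots on each array. They were compared between 2 control samples and 2 samples with a shRNA against PAK1, the p21-activated kinase 1.

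MCF10A.B2 is a non-tumorigenic human mammary epithelial line that carries a chimeric form of the receptor HER2, which the small molecule AP1510 crosslinks and thereby activates. All 4 samples were of this line, grown in DMEM/F12 with 5% horse serum, starved of serum for 3 h and given AP1510 for 15 min before RNA extraction, so the activated receptor was common to both groups. The PAK1 shRNA group carried a stable Tet-inducible shRNA, and the labels neither state how it was induced nor whether the control cells were parental or uninduced. The labels also call the cells breast cancer and the series speaks of tumors as the source of the replicates, whereas the methods name the cell line. Nothing in the sample labels states that the replicates came from separate cultures, so the p-values measure the spread between these samples only, which may be technical.

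The gene targeted by the shRNA, PAK1, read in normalized log2 intensity 11.19 and 11.27 in control and 10.44 and 10.51 in PAK1 shRNA cells. It fell by 0.76 on the log2 scale, to 59.2% of the control level (adjusted p = 0.000181, limma with Benjamini-Hochberg adjustment). The arrays lay on 1 slide, controls at positions 1 and 2 and PAK1 shRNA at positions 3 and 4, so position and group cannot be told apart. On each array between 78.9% and 83.2% of probes were well above background. Across probes, arrays of the same group differed by a median of 0.08 and 0.09 on the log2 scale and arrays of different groups by 0.36 to 0.40. Of 8 markers of basal mammary epithelium, 7 were well above background on all 4 arrays. In PAK1 shRNA cells 4 of the 8 were lower and 2 higher, with KRT5 falling by 1.20 and LAMB3 rising by 1.19 on the log2 scale. For these and the other marker counts, the share of all genes tested was 32.0% lower and 30.6% higher. The rise of LAMB3 rests on 1 PAK1 shRNA array, since a flag left out replicate 2, which also kept LAMB3 out of the 7. LAMB3 was bright, at 17.11 and 16.93 in control and 18.21 in PAK1 shRNA replicate 1. Markers of other cell types were also detected on all 4 arrays, 5 of 6 of luminal cells, 3 of 6 of fibroblasts and 3 of 5 of immune cells, and PGR, COL1A2 and COL3A1 on none. Of the fibroblast markers tested 3 were higher and 1 lower, from PDGFRB at -0.58 to LUM at 1.79, which ran from 1.00 to 3.62 over the alternatives, and the mean log2 level of the 4 was 8.59 and 8.37 in control and 9.20 and 9.23 in PAK1 shRNA cells. The part of these markers in the results on the checkpoint genes was not tested.

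Cells that meet damaged DNA or a stalled replication fork stop their cycle through a pair of large kinases. ATM answers to double strand breaks and passes the signal mainly to CHEK2, while ATR, held on single-stranded DNA by ATRIP, needs the ring-shaped clamp that contains RAD9A and the activator TOPBP1, and passes the signal to CHEK1 through the adaptor CLSPN (claspin). CHEK1 and CHEK2 restrain CDC25A, the phosphatase that switches on the cyclin-dependent kinases, and WEE1 puts on the phosphate that CDC25A takes off.

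The comparison asked whether the RNA of these genes differed when PAK1 was depleted. ATRIP, TOPBP1, CLSPN, CHEK1 and CDC25A fell in PAK1 shRNA cells, ATM, RAD9A and CHEK2 rose, and ATR and WEE1 did not pass the test. CDC25A fell to 20.6% of the control level and CLSPN to 24.6%, while RAD9A rose 3.79-fold and CHEK2 2.59-fold. Thus 5 of 10 genes were lower, where 32.0% of all 21923 genes tested were lower, and 3 were higher, where 30.6% of all genes were higher. In either direction 62.6% of all genes passed an adjusted p of 0.05, so the number of the 10 that passed is read against that share. The genes that also changed at least 2-fold were ATRIP, CLSPN and CDC25A among those that fell and RAD9A and CHEK2 among those that rose, against 17.9% of all genes in either direction. The 10 genes had a median log2 fold change of -0.20, against 0.02 over all genes tested, and the median absolute log2 fold change was 0.92 against 0.38. In 9 of the 10 genes the values of the groups did not overlap, as in 82.1% of all genes. An exact two-sided permutation test of 2 arrays against 2 cannot go below p = 0.333 for a single gene, so the tests here rest on limma's fit across all genes. In RNA from whole cultures, fewer cells expressing a gene and less RNA per cell cannot be told apart.

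**Figure D1:**
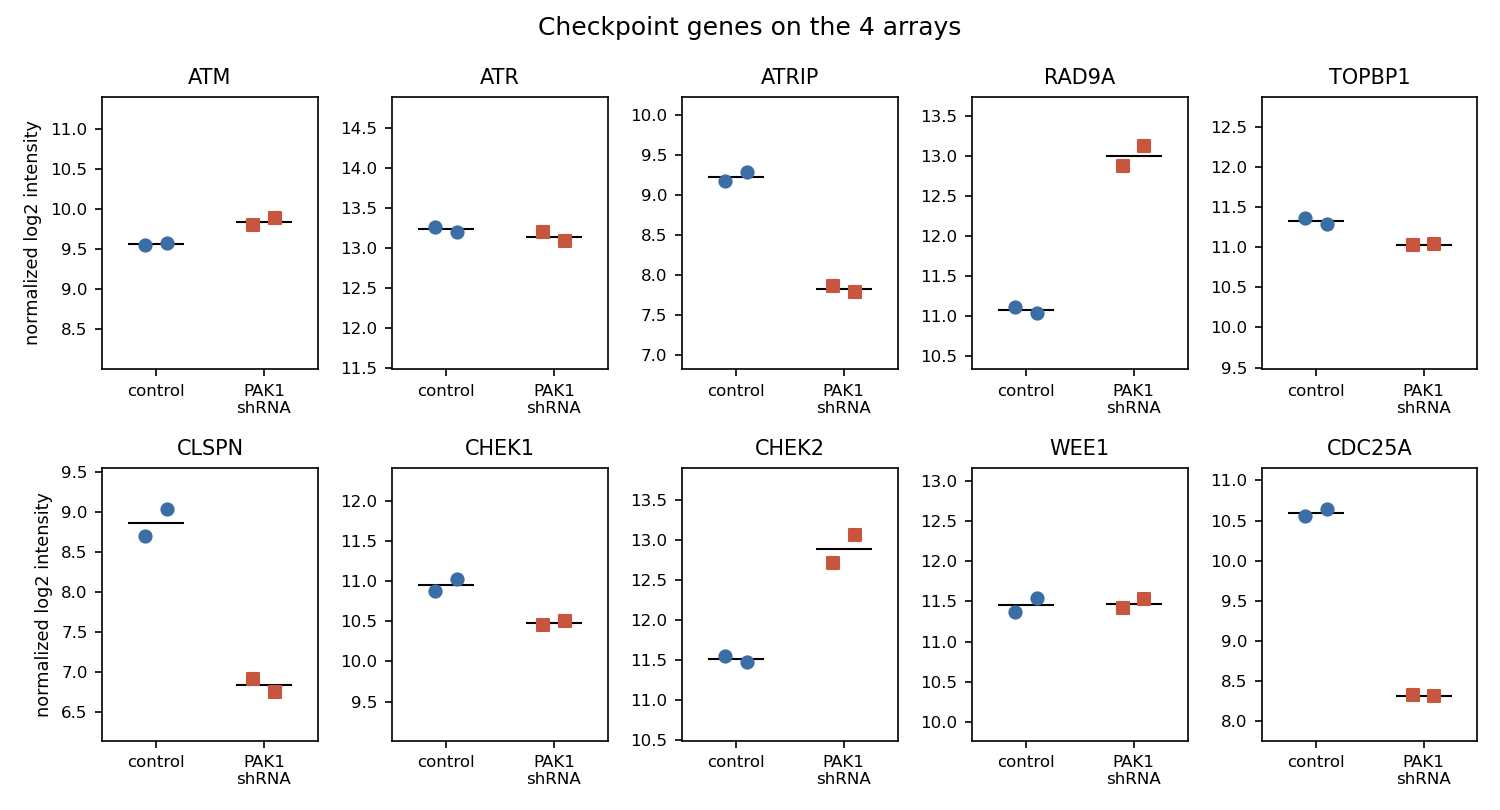
Normalized log2 intensity of each checkpoint gene on the 2 control arrays (blue circles) and the 2 PAK1 shRNA arrays (red squares), 1 panel a gene, with a black line at the mean of each group. Every panel spans the same number of log2 units around its own mean, so distances can be compared between panels but levels cannot. CDC25A, CLSPN and ATRIP are clearly lower and RAD9A and CHEK2 clearly higher in PAK1 shRNA cells, and the WEE1 points overlap.

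The changes rest on few probes, so the probe sequences of the genes with the largest changes and with probes that differed are shown, by the first 30 of their 60 bases in lower case, 5′ to 3′. Their positions are those of hg19 in the scanner files. No gene annotation of that build was used, so exon and UTR positions are not given here.
RAD9A, A_24_P21715, chr11:67165480-67165539, plus strand: caagttttccttgctttcctgatactcttt
CLSPN, A_23_P126212, chr1:36204117-36204176, minus strand: ttcccagatggacttgttccacagagactc
CDC25A, A_24_P397107, chr3:48199124-48199183, minus strand: tgatgaatcatcaccggttgtccccttatc
CHEK2, A_23_P109452, chr22:29085145-29090020, minus strand: ggatgaagacatgaagagaaagtttcaaga
CHEK2, A_33_P3386760, chr22:29121275-29121334, minus strand: ggtttgggagggacaaaagctgtgaatatt
ATM, A_33_P3589722, chr11:108099942-108100001, plus strand: ctgagaatagcaaaaccaaatgtatcagcc
ATM, A_23_P35916, chr11:108236085-108236144, plus strand: acgtgtcttaatgagactacaagagaaact

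The first CHEK2 probe covers a genomic span of 4876 bases, longer than its own 60, so its alignment to the genome holds a gap. The same holds for both ATRIP probes. ATM, ATR, ATRIP and CHEK2 had 2 probes each and the other 6 genes had 1. All 14 probes were well above background on all 4 arrays and none was saturated.

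At the head of the pathway, ATM rose slightly and ATR did not pass the test. The ATM probe used for the gene read 9.55 and 9.58 in control and 9.81 and 9.89 in PAK1 shRNA cells, in normalized log2 intensity. Both PAK1 shRNA arrays were above both controls, and the groups lay apart by more than the arrays of a group did. The log2 fold change of ATM was 0.28 (SE 0.07, adjusted p = 0.0144, limma with Benjamini-Hochberg adjustment), which is 122% of the level in control cells. The other ATM probe, spotted 10 times on each array, read 9.06 and 8.73 in control and 9.33 and 9.57 in PAK1 shRNA cells. It too was higher in PAK1 shRNA cells, with a wider spread within the groups, and its log2 fold change was 0.56 (SE 0.13, adjusted p = 0.00862 over all probes, limma with Benjamini-Hochberg adjustment), where 63.5% of all 27394 probes passed.

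In the probe used for the gene, the rise of ATM was smaller than the difference in brightness between the arrays, as can hold for any gene with a small rise. The scanner signal of the first ATM probe was 991 and 788 in control and 747 and 778 in PAK1 shRNA cells, lower in both PAK1 shRNA samples. For the other ATM probe the median scanner signal over its 10 spots was 722 and 439 in control and 541 and 654 in PAK1 shRNA cells, and here the groups overlapped. The control arrays were brighter throughout, with a median spot of 501 and 383.5 against 326 and 319. Spots of the same array varied by a coefficient of variation of 11.3% to 13.9%, so the difference between the control arrays in this probe exceeded the spot error. ATM lost its call under median centring (adjusted p = 0.0592) and without PAK1 shRNA replicate 2 (adjusted p = 0.0909), both from limma with Benjamini-Hochberg adjustment.

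**Figure D2:**
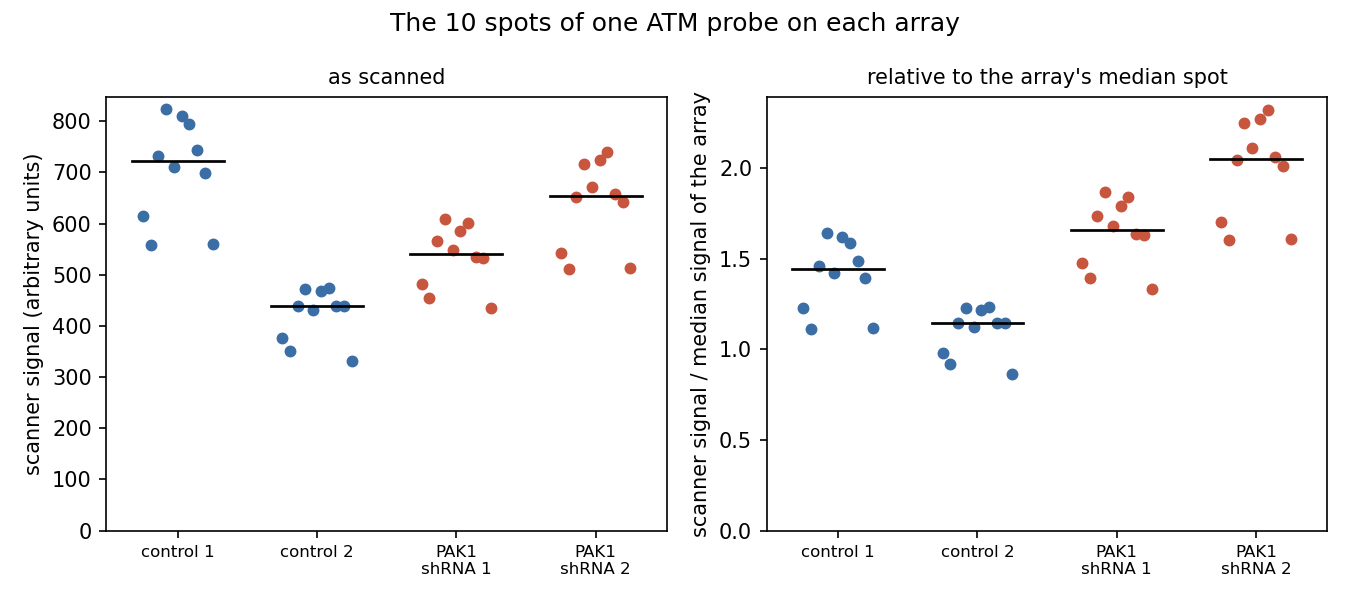
Scanner signal of the 10 spots of 1 ATM probe on each array, as scanned on the left and divided by the median scanner signal of the array on the right, with a black line at the median of the spots. As scanned, the control 1 array (median 722) is the brightest and the groups overlap, while relative to the median spot both PAK1 shRNA arrays have a higher median than both control arrays.

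ATR, the kinase of replication stress, read 13.27 and 13.20 in control and 13.20 and 13.09 in PAK1 shRNA cells. The lower control array and the higher PAK1 shRNA array were equal to 2 decimals. Its log2 fold change was -0.09 with a 95% interval from -0.28 to 0.10 (adjusted p = 0.351, limma with Benjamini-Hochberg adjustment), and the other ATR probe gave -0.01.

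ATRIP, the partner that brings ATR to single-stranded DNA, read 9.17 and 9.28 in control and 7.86 and 7.79 in PAK1 shRNA cells. The groups lay far apart compared with the spread within each. ATRIP fell by 1.40 on the log2 scale (SE 0.08, adjusted p = 1.42e-05, limma with Benjamini-Hochberg adjustment), to 37.8% of the control level. The other ATRIP probe read 8.87 and 9.05 against 7.57 and 7.49 and fell by 1.44, so the probes differed by less than their standard errors. In the RefSeq gene table the ATRIP locus also carries a readthrough transcript into a neighbouring gene, and whether the probes also bind that transcript was not tested.

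RAD9A, the clamp subunit whose tail binds TOPBP1, had the largest rise of the 10 genes. It read 11.11 and 11.04 in control and 12.87 and 13.12 in PAK1 shRNA cells, a log2 fold change of 1.92 (SE 0.10, adjusted p = 1.08e-05, limma with Benjamini-Hochberg adjustment). The rise was present before any normalization, since the scanner signal was 2983 and 2229 in control and 6323 and 7579 in PAK1 shRNA cells. RAD9A had only 1 probe on the array, so no second probe bears on it.

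TOPBP1, the activator that RAD9A holds next to ATR, read 11.37 and 11.29 in control and 11.02 and 11.03 in PAK1 shRNA cells. It fell by 0.30 on the log2 scale (SE 0.07, adjusted p = 0.0112, limma with Benjamini-Hochberg adjustment), to 81.3% of the control level. The call was lost without PAK1 shRNA replicate 1 or 2 (adjusted p = 0.0612 and 0.0535), and the direction was kept.

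CLSPN, the adaptor that presents CHEK1 to ATR, read 8.69 and 9.03 in control and 6.92 and 6.76 in PAK1 shRNA cells. All PAK1 shRNA values lay far below the controls. CLSPN fell by 2.02 on the log2 scale (SE 0.13, adjusted p = 2.18e-05, limma with Benjamini-Hochberg adjustment). Its scanner signal was 536 and 534 in control and 94.0 and 87.4 in PAK1 shRNA cells over a local background of 40 to 49.5, and the log2 fold change ran from -2.43 to -1.22 where only the background correction was changed and was -3.01 with processed signals scaled to the 75th percentile.

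Of the effector kinases, CHEK1 fell and CHEK2 rose. CHEK1, which enforces the arrest downstream of ATR, read 10.87 and 11.03 in control and 10.45 and 10.50 in PAK1 shRNA cells. It fell by 0.47 on the log2 scale (SE 0.08, adjusted p = 0.00256, limma with Benjamini-Hochberg adjustment), to 72.0% of the control level. CHEK2, which acts downstream of ATM, read 11.55 and 11.47 in control and 12.71 and 13.06 in PAK1 shRNA cells, with the wider spread in the PAK1 shRNA group. Its log2 fold change was 1.37 (SE 0.12, adjusted p = 0.000101, limma with Benjamini-Hochberg adjustment).

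The CHEK2 probes rose by different amounts. The other CHEK2 probe read 8.89 and 8.94 in control and 9.62 and 9.84 in PAK1 shRNA cells, a log2 fold change of 0.81 with a 95% interval from 0.59 to 1.03. For the first probe the interval in the same fit over probes ran from 1.09 to 1.66, so the intervals did not overlap. Both probes were brighter on the PAK1 shRNA arrays as scanned, the first with 3996 and 2978 against 5628 and 7243 and the other with 621 and 499 against 652 and 747. CHEK2 has 6 pseudogenes in the RefSeq gene table, and what they add to either probe was not tested.

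Of the opposing enzymes that set the phosphate on the cyclin-dependent kinases, CDC25A fell and WEE1 did not pass the test. CDC25A, the activating phosphatase that CHEK1 sends for destruction, read 10.56 and 10.64 in control and 8.32 and 8.31 in PAK1 shRNA cells. The arrays of each group were close together and the groups far apart. CDC25A fell by 2.28 on the log2 scale (SE 0.07, adjusted p = 1.82e-06, limma with Benjamini-Hochberg adjustment), the largest fall of the 10 genes with the processing used here. With an offset of 16 in the background correction CLSPN was slightly lower than CDC25A, at -2.43 against -2.41. With processed signals scaled to the 75th percentile CLSPN was at -3.01 and CDC25A at -2.55. WEE1, the kinase that opposes CDC25A, read 11.37 and 11.55 in control and 11.42 and 11.53 in PAK1 shRNA cells. Its PAK1 shRNA values lay between the control values, and the log2 fold change was 0.01 with a 95% interval from -0.20 to 0.23 (adjusted p = 0.905, limma with Benjamini-Hochberg adjustment). WEE1 has 2 pseudogenes in the RefSeq gene table, and what they add to its only probe was not tested.

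**Figure D3:**
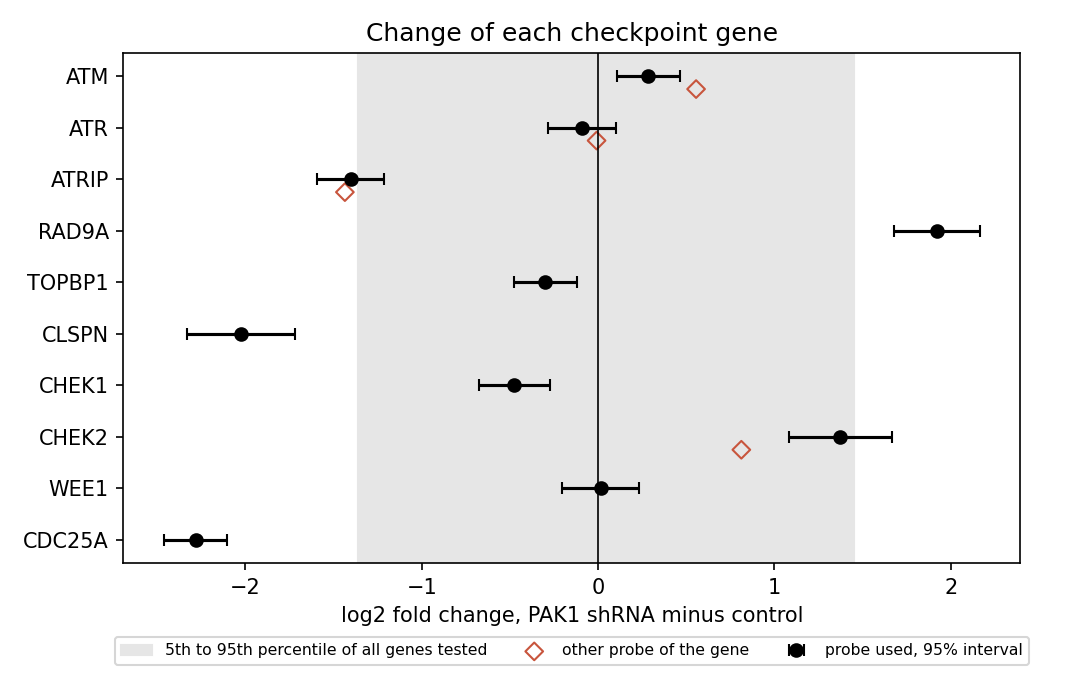
Log2 fold change of each checkpoint gene, PAK1 shRNA minus control, with its 95% interval (black) and the other probe of the genes that had 2 (red diamonds). The grey band runs from the 5th to the 95th percentile of all genes tested, -1.36 to 1.45, and ATRIP, CLSPN, CDC25A and RAD9A lie outside it.

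Promoter windows from RefSeq (GRCh38.p14) were searched for 3 short motifs on both strands, from 250 bases before to 50 bases after each start. Of the 10 genes, 9 had 13 windows, and WEE1 had none. An E2F-type sequence (TTTCCCGC, TTTGGCGC, TTTCGCGC or TTTGCCGC), the letters bound by the factors of S phase transcription, was found in 3 of the 13 windows, those of CLSPN, CDC25A and TOPBP1, and in 3.31% of all 35116 windows. All 3 genes were among those that fell. ATRIP and CHEK1 fell too and had no E2F-type match, and ATM, RAD9A and CHEK2, which rose, had none either. Only these exact letters were searched, and a part of the E2F-type sequence in the changes was not tested. The CCAAT letters were found in 11 of the 13 windows and in 34.6% of all windows, and occurred in genes that rose (ATM, RAD9A, CHEK2) as well as in genes that fell. Some genes had several windows, and those of CHEK1 overlap, so the same site can count more than once. By gene, 7 of 9 had the CCAAT letters. TTTGAA, the letters of the cell cycle homology region, was found in 1 window of ATM and in 15.2% of all windows. A match describes letters only and shows no binding.

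The 250 bases before the start are shown for CDC25A, CLSPN and TOPBP1, which had an E2F-type match, and for RAD9A and CHEK2, which rose and had none. Capitals mark E2F-type and CCAAT matches on either strand, and in CLSPN and TOPBP1 the E2F-type match begins 5 and 7 bases before the start and continues past it.
CDC25A, chr3:48188418-48188667, minus strand: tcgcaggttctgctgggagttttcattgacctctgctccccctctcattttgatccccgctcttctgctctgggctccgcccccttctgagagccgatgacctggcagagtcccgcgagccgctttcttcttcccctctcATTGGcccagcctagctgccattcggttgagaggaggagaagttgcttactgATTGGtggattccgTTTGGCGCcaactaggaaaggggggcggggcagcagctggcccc
CLSPN, chr1:35769979-35770228, minus strand: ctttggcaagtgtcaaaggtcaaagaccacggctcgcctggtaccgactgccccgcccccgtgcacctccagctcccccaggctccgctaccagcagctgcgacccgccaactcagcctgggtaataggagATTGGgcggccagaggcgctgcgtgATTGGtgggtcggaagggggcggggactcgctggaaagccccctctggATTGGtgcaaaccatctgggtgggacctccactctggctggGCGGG
TOPBP1, chr3:133661942-133662191, minus strand: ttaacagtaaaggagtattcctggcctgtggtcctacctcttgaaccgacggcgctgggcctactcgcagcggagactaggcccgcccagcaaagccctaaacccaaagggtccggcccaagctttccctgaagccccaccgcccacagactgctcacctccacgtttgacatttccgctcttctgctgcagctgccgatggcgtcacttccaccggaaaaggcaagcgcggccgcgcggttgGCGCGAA
RAD9A, chr11:67391736-67391985, plus strand: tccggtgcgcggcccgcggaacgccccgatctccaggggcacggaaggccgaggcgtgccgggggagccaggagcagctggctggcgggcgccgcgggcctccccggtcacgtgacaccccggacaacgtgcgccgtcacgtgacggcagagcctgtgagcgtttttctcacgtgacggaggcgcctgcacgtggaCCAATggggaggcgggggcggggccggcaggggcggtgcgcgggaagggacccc
CHEK2, chr22:28741821-28742070, minus strand: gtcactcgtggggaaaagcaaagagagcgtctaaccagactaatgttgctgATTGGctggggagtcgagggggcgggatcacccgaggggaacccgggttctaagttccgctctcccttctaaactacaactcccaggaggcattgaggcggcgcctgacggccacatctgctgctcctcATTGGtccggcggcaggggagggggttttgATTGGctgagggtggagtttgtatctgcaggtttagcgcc

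Around these genes, 43 partners of the checkpoint were measured, from a list of their known roles, and all 43 were tested. Of them 35 were lower in PAK1 shRNA cells (81.4%, against 32.0% of all genes), 4 were higher and 4 did not pass, with a median log2 fold change of -1.34. The other subunits of the clamp moved against RAD9A, since RAD1 fell by 0.84 and HUS1 by 0.37 on the log2 scale. Of the clamp and its loader 7 of 8 genes fell, with a median of -1.91, from RFC5 of the loader at -3.19 to RAD17, the loader's own large subunit, at 0.07, which did not pass. RAD1 is a ring partner of RAD9A and read 10.07 and 10.11 in control against 9.27 and 9.24 in PAK1 shRNA cells, so the groups did not overlap. RAD1 and HUS1 were chosen for naming after their values were seen.

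Among the genes that activate ATR and protect forks, 5 of 6 fell, with a median of -1.25. RPA3, the small subunit of the single-strand binding complex that ATRIP recognizes, had -2.95, and ETAA1, an activator of ATR that works beside TOPBP1, had 0.16 and did not pass. Break sensors and mediators of ATM divided, with 6 lower, 1 higher and 2 not past the test of 9. H2AX, the histone that ATM phosphorylates at breaks, fell by 3.44 on the log2 scale. The genes that keep ATM and ATR proteins stable fell in 3 of 3 cases, TELO2 by 0.95, TTI1 by 0.46 and TTI2 by 0.41.

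Downstream, 9 of 9 genes grouped under the switch that activates cyclin-dependent kinases were lower, with a median of -2.24. This group also holds kinases and phosphatases that act beside CDC25A and WEE1, such as CDC7 with DBF4, PKMYT1, CDC25B and CDC25C. CCNB1, the mitotic cyclin, had the largest fall at -4.98 and CDK2, the kinase of S phase entry, the smallest at -1.01. Of the genes for recovery from arrest 5 of 5 fell, from PLK1, the kinase that removes claspin, at -3.70 to PPM1D, a phosphatase that reverses ATM signals, at -0.37. PPM1D lost its call without control replicate 2 (-0.24, adjusted p = 0.142) and without PAK1 shRNA replicate 2 (-0.27, adjusted p = 0.151), both from limma with Benjamini-Hochberg adjustment. The group of MDM2, MDM4 and CDKN1A was higher in 3 of 3 genes. On the log2 scale MDM2, a ubiquitin ligase, rose by 2.01, MDM4, its relative, by 1.17, and CDKN1A, an inhibitor of cyclin-dependent kinases, by 1.17. With the probes of a gene averaged, MDM4 was 0.56.

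**Figure D4:**
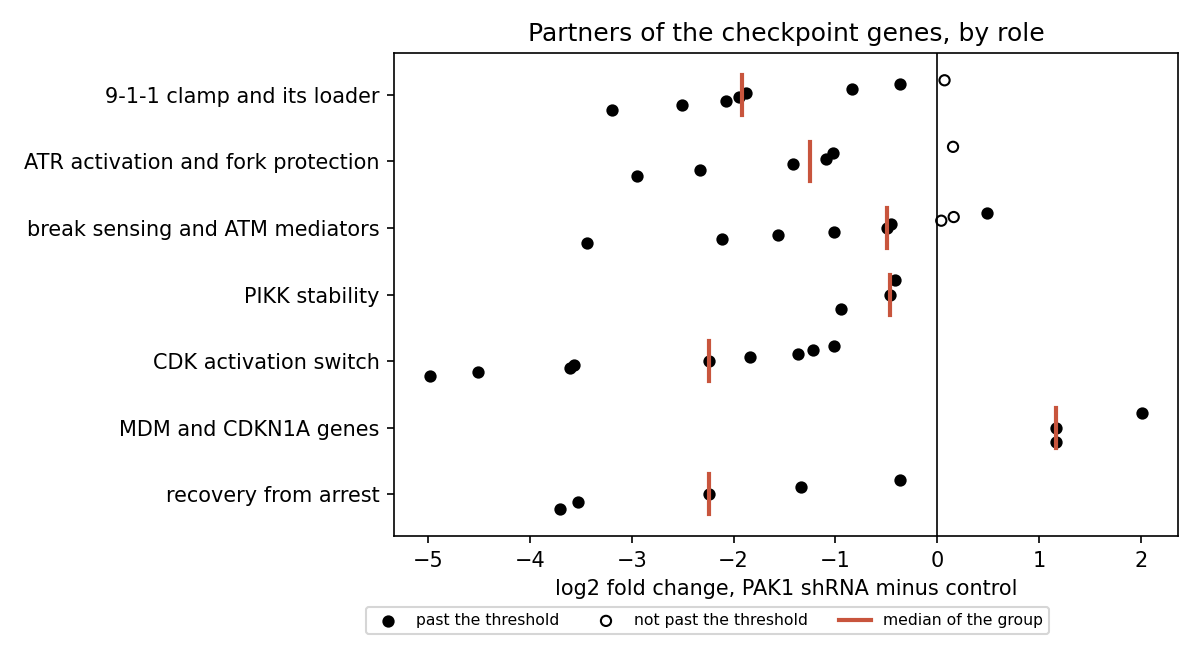
Log2 fold change, PAK1 shRNA minus control, of the 43 partners of the checkpoint genes in 7 groups by role, filled where the adjusted p of limma was under 0.05, with a red line at the median of each group. All groups except that of MDM2, MDM4 and CDKN1A have a median below 0, from -0.46 for the stability genes to -2.24 for the genes of the cyclin-dependent kinase switch and of recovery.

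Genes of proliferating cells moved with these falls. All 20 genes of a proliferation list were lower, with a median log2 fold change of -3.66, and their mean log2 level was 13.19 and 13.23 in control and 9.82 and 9.75 in PAK1 shRNA cells. Their part in the falls of CDC25A, CLSPN, ATRIP, CHEK1 and TOPBP1 was not tested.

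By the distance of centred log2 values over the 4 arrays, the tested genes with a pattern most like CHEK1 were FAM104B (0.00929), A_33_P3236117 (0.0167), a probe without a gene name, and LOC128322 (0.0194), with 287 genes within 0.1. Most like ATM were MOG (0.00764), A_33_P3237719 (0.0125), again a probe without a gene name, and WFIKKN2 (0.0174), with 692 genes within 0.1. Over 4 arrays such patterns are common, as these numbers of near genes show.

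Under the alternatives the direction of the 8 genes that passed was kept throughout. ATRIP, CDC25A, CLSPN, CHEK2 and RAD9A passed under all 20, with log2 fold changes from -1.64 to -0.93, -2.55 to -1.74, -3.01 to -1.22, 1.09 to 1.55 and 1.78 to 2.03, in that order. ATM passed under 15, TOPBP1 under 16 and CHEK1 under 18 of the 20.

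**Figure D5:**
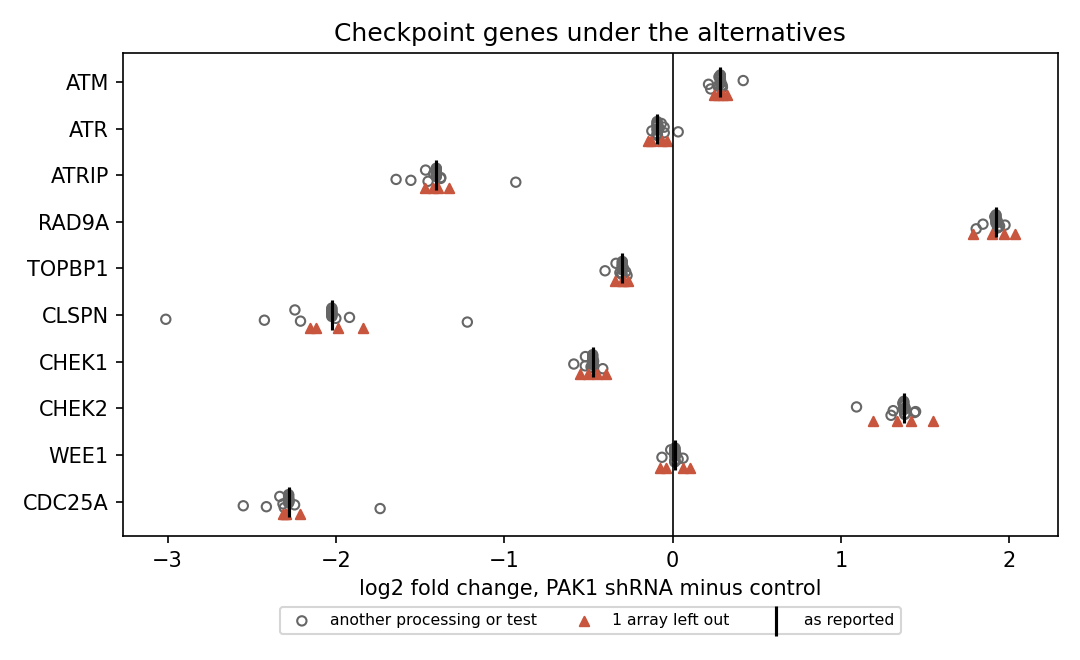
Log2 fold change of each checkpoint gene, PAK1 shRNA minus control, as reported (black bar), under another processing or test (open circles) and with 1 array left out (red triangles). ATR and WEE1 cross 0, the other 8 genes stay on their side, and CLSPN has the widest range, from -3.01 to -1.22.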

How the data were processed

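RNA of 2 control and 2 PAK1 shRNA samples of MCF10A.B2 cells was hybridized in 1 colour (Cy3) to Agilent whole genome arrays. The deposited scanner files hold spot intensities written by Agilent Feature Extraction (version 9.5.3.1 per the file headers, 9.5 per the submitters' processing notes), not yet normalized. A deposited table of processed log2 values served as an alternative. Samples were grouped by their titles. Probe coordinates are those of the file headers (hg19).

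Here intensities were background corrected with normexp, which the study's methods name without an offset (50 here), fitted without spots of flagged local background. The fitted background mean was then -9.19 and -12.1 on the control and -10.4 and -9.78 on the PAK1 shRNA arrays, against -666 and -740, and -10.7 and -10.2, in the fit on all spots. They were quantile normalized over non-control spots, flagged spots were dropped and replicate spots averaged per probe. A probe had to be well above background on all arrays of 1 group or the other, and each gene was represented by its brightest probe on average. The 21923 genes were tested by limma 3.58.1 (lmFit, eBayes; R 4.3.3), p-values were adjusted over all of them by Benjamini-Hochberg, and the threshold was 0.05. For 889 genes, none of them among the 10 described, a flag left out 1 array. The test was checked on simulated data. The number of arrays limits the precision.

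The 10 genes and the gene lists were chosen with earlier results of these data known. Named genes were the 10 with every probe, the largest rise and fall of each role group of partners (those reported here) and groups of up to 3 genes, and the 3 genes nearest in pattern to CHEK1 and to ATM. RAD1, HUS1 and the cell type markers were named outside this rule. Some results of the partner list are not reported here. Where the array carries an older name of a listed gene, the synonyms of the RefSeq table (GRCh38.p14) gave the match. Of the other lists, 2 of 5 luminal markers tested were higher and 2 lower, and 1 of 4 immune markers tested was higher, where 30.6% of all genes were higher and 32.0% lower. A flag left the immune marker that was higher, CD14, with a value on PAK1 shRNA replicate 1 only. It left KRT18, a luminal marker that was higher, with a value on control replicate 2 only. Alternatives changed the background correction and its offset, the signal used, the scaling between arrays, the filter on dim probes, the treatment of flagged spots, the probe rule, the test and its threshold, added the replicate block, took the deposited log2 values or left out each array in turn. No pairing of the arrays by replicate number was seen, since the deviations of arrays with the same number had a correlation of 0.01 over 26303 probes. With 2 pairs of normalized arrays this cannot settle whether the samples were paired.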

Additional observations from a re-analysis of the deposited data

How the results depend on the processing

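Of 200 values of the 10 genes under the alternatives, 184 kept their direction and their side of the threshold, 11 lost the call and 5 changed sign, all 5 in the genes that had not passed. ATR was 0.033 with cyclic loess, and WEE1 was -0.063 with median centring, -0.075 without control replicate 1, -0.038 without PAK1 shRNA replicate 2 and -0.011 with the deposited log2 values. With each array left out in turn WEE1 ran from -0.075 to 0.10. ATM also lost its call with the unpaired t-test (adjusted p = 0.0526 after Benjamini-Hochberg adjustment over all genes, not an exact test), as did CHEK1 (0.0638). CLSPN was -1.22 with normexp fitted on all spots and -3.01 with processed signals scaled to the 75th percentile. With the unpaired t-test 4140 genes were higher and 4519 lower, and with a fold of at least 2 there were 1929 and 1995, with 3 of the 10 genes lower. The median of all genes moved to 0.11 with the 75th percentile and to 0.14 with median centring, where 7415 genes were higher and 6403 lower, and 8401 higher and 6610 lower, against 6707 and 7010 as reported. With 1 array left out, 5534 to 6189 genes were higher and 5875 to 6526 lower, and of the 10 genes 2 to 3 were higher and 4 to 5 lower. ATM was the call lost without PAK1 shRNA replicate 2, and TOPBP1 the call lost without either PAK1 shRNA replicate. In these fits a group had a lone array, assumed to vary like the other group.

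When the replicate number entered as a block, 6669 genes were higher and 6812 lower, with 3 of the 10 genes higher and 5 lower and 4 partners higher and 35 lower. No pairing by these numbers was seen, and the block changed no call among the 10 genes. The slide was not fitted as a block, since all arrays lay on 1 slide.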
